A study of Luscinia megarhynchos and Luscinia luscinia with 4 samples.

Results

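The ovary of *Luscinia megarhynchos* (common nightingale) was compared with the ovary of *L. luscinia* (thrush nightingale) for the expression of genes on the germline-restricted chromosome (GRC). The genes compared were all those with an FPKM (fragments per kilobase of coding sequence, scaled to the library) above 0 in either ovary library, which were 275 of the 799 genes in the deposited table. Songbirds carry the GRC in the cells of the germline and lose it from the cells of the soma. Its genes are copies of genes on the ordinary A chromosomes, and many of the copies are incomplete. In females the GRC is passed on through the oocyte, and in males it is usually expelled during meiosis.

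Each ovary library came from 1 female from allopatry, the bird whose DNA had also served for the somatic reference genome of its species. The 2 ovary libraries belong to a series of 4 libraries, the others being a testis of a male of each species. The labels of all libraries describe the mRNA as depleted of DNA, and the study treated the total RNA with DNase. Polyadenylated RNA was made into stranded libraries and read as 150 bp single ends. There was 1 library per species, so no spread between birds could be measured and no test was made. All intervals below are 95% limits for the counting of reads in these libraries only. Only germ cells hold the GRC, and the share of germ cells in each ovary was not measured, so more germ cells and more GRC RNA per germ cell cannot be told apart. None of the 10 oocyte markers, 7 granulosa and theca markers and 5 testis markers looked for (such as ZP3, FOXL2 and PRM1) is in the table. It lists only genes matched to GRC sequence. The tissue label could therefore not be checked on these values.

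For 192 genes the number of reads behind each value could be recovered, and 131 of these were above 0 in an ovary. The libraries had been scaled to 57644189 reads in the *L. megarhynchos* ovary, against 36650197 reads in the *L. luscinia* ovary. Levels and ratios are given below as reads per 1000000 of these totals (RPM) unless stated otherwise, and a ratio is always *L. megarhynchos* over *L. luscinia*. A 0 has different meanings: a gene not annotated on the GRC assembly of a species could receive no reads there. For the remaining 607 genes, of which 144 were above 0 in an ovary, only the deposited FPKM is given. The 192 are the genes that the study identified on the GRCs, keeping those with enough of the coding region to limit misidentification. The 607 are not among them.

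The GRC genes were more abundant in the *L. megarhynchos* library. They took 50088 reads, or 869 RPM (861 to 877), in the *L. megarhynchos* ovary, and 10627 reads, or 290.0 RPM (284 to 296), in the *L. luscinia* ovary. The ratio of the sums was 2.997 (2.93 to 3.06). Over the genes annotated on both GRC assemblies it was 2.57 (2.52 to 2.63), with 37759 reads in *L. megarhynchos* and 9327 reads in *L. luscinia*. SLC26A9 alone gave 28.3% of the GRC reads in *L. megarhynchos*, and without it the ratio was 2.57. The study reports a higher average copy number of genes on the *L. megarhynchos* GRC. No ratio here is divided by copy number, and its part in the ratios was not tested. On the log2 scale the ratio of the sums is 1.58. It is weighted by the few genes with most reads, and the median log2 ratio of single genes was lower, 0.51 over the 48 genes with reads in both ovaries.

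More genes were above 0 in the *L. megarhynchos* ovary than in the *L. luscinia* ovary, 198 against 140, or 24.8% and 17.5% of the 799 genes. Both ovaries shared 63 genes (7.88% of the table), which was 31.8% of the genes in *L. megarhynchos* and 45.0% of those in *L. luscinia*. A further 135 genes were above 0 in *L. megarhynchos* only and 77 in *L. luscinia* only. Of the 192 genes that the study identified, 98 were above 0 in *L. megarhynchos*, 81 in *L. luscinia* and 48 in both. The lowest values above 0 were an FPKM of 5.80e-06 for SYNE1 in *L. megarhynchos* and 7.35e-06 for MACF1 in *L. luscinia*, and all genes outside the comparison were listed at 0. Many genes rested on few reads. Of the 98 genes with recovered reads in *L. megarhynchos*, 41 had fewer than 10 reads, 37 had 10 to 99, 11 had from 100 to under 1000 and 9 had 1000 or more. Of the 81 such genes in *L. luscinia*, 40 had fewer than 10 reads, 29 had 10 to 99, 9 had from 100 to under 1000 and 3 had 1000 or more.

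**Figure D1:**
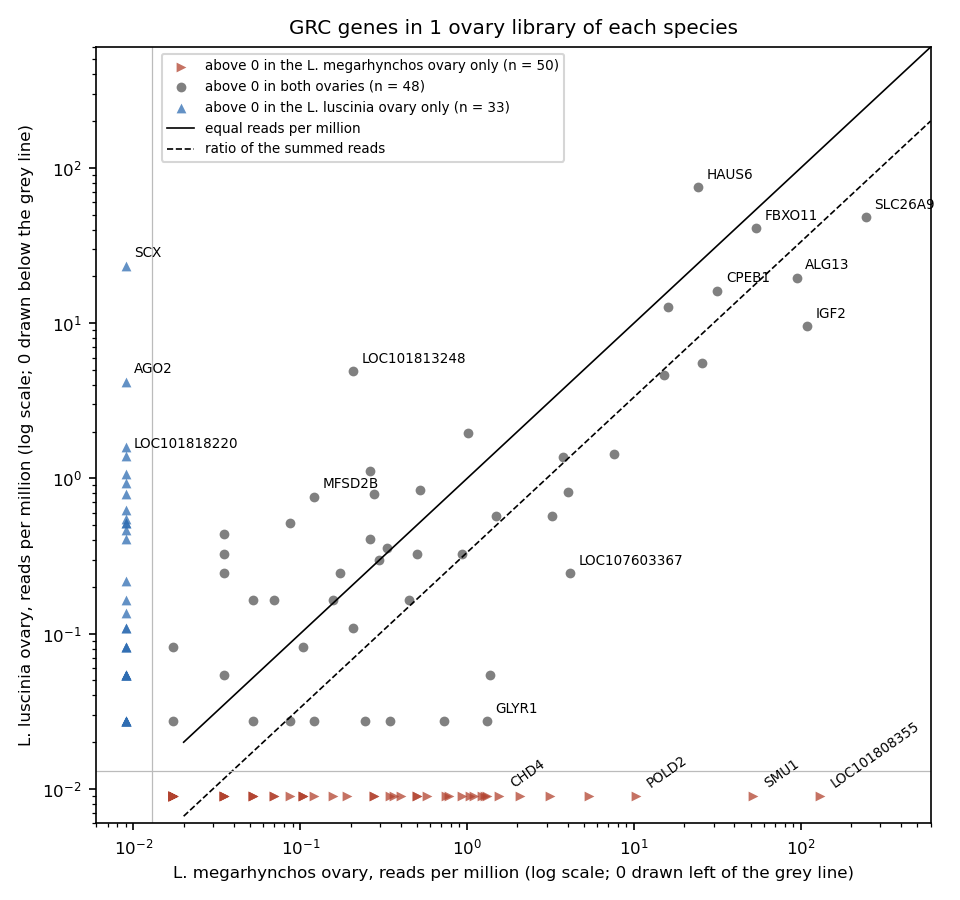
RPM of the 131 GRC genes with recovered reads in either ovary, with *L. megarhynchos* on the x axis and *L. luscinia* on the y axis (both log scale). Each point is a gene in 1 library per species, genes at 0 in a library lie beyond the grey lines, the solid line marks equal values and the dashed line the ratio of the summed reads (2.997). The abundant genes lie mostly below the solid line, while HAUS6 and LOC101813248 lie above it.

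Primers that the study designed on GRC sequence of 4 of the genes are shown because they give actual bases of genes in the comparison. The study also designed further pairs for CPEB1, IGF2 and SYCP1, which are not shown. CPEB1 and SYCP1 were above 0 in both ovaries. IGF2 had a ratio that depended strongly on how much of the gene was assembled, and PGPEP1L was annotated on the *L. megarhynchos* GRC only. The study obtained a PCR product with the PGPEP1L primers in both species, so a gene missing from an assembly may still be on that chromosome. It also amplified regions of IGF2 and SYCP1 in both species, and ascribes part of the gene fragmentation to assembly gaps. The share of IGF2 found may be affected by such gaps. Each is written 5′ to 3′, and capitals mark the last 5 bases, from which the polymerase extends.
CPEB1 forward: agtacgagaaccccatctATTCT
CPEB1 reverse: caaaatgacgaaaagcatcaatCAATT
IGF2 forward: agtaaccgtcggatcaACTCG
IGF2 reverse: gtagcggtgagcCTGTG
SYCP1 forward: gacagaactggaagAAGTC
SYCP1 reverse: cctggaattcaatttcTAAGC
PGPEP1L forward: cttctgggtgaaaatcATAAG
PGPEP1L reverse: gctctgcagccacTGGTG

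Between the ovaries, 24 genes could be compared with at least 10 reads in both. By RPM, 11 of them (45.8%) were at least 2-fold higher in *L. megarhynchos*, 4 (16.7%) were at least 2-fold higher in *L. luscinia*, and 9 lay within 2-fold. The counting interval of the ratio lay wholly above 1 for 14 genes (58.3%), wholly below 1 for 5 genes (20.8%) and included 1 for 5 genes. The median log2 ratio of the 24 genes was 0.79, and the ratios ran from -4.56 to 3.51. Relative to the sum of reads on GRC genes, only 1 gene (IGF2) was at least 2-fold higher in *L. megarhynchos* and 11 were at least 2-fold higher in *L. luscinia*. On that scale, which divides every ratio by 2.997, 8 of the 24 genes had a ratio above 1, against 15 by RPM.

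**Figure D2:**
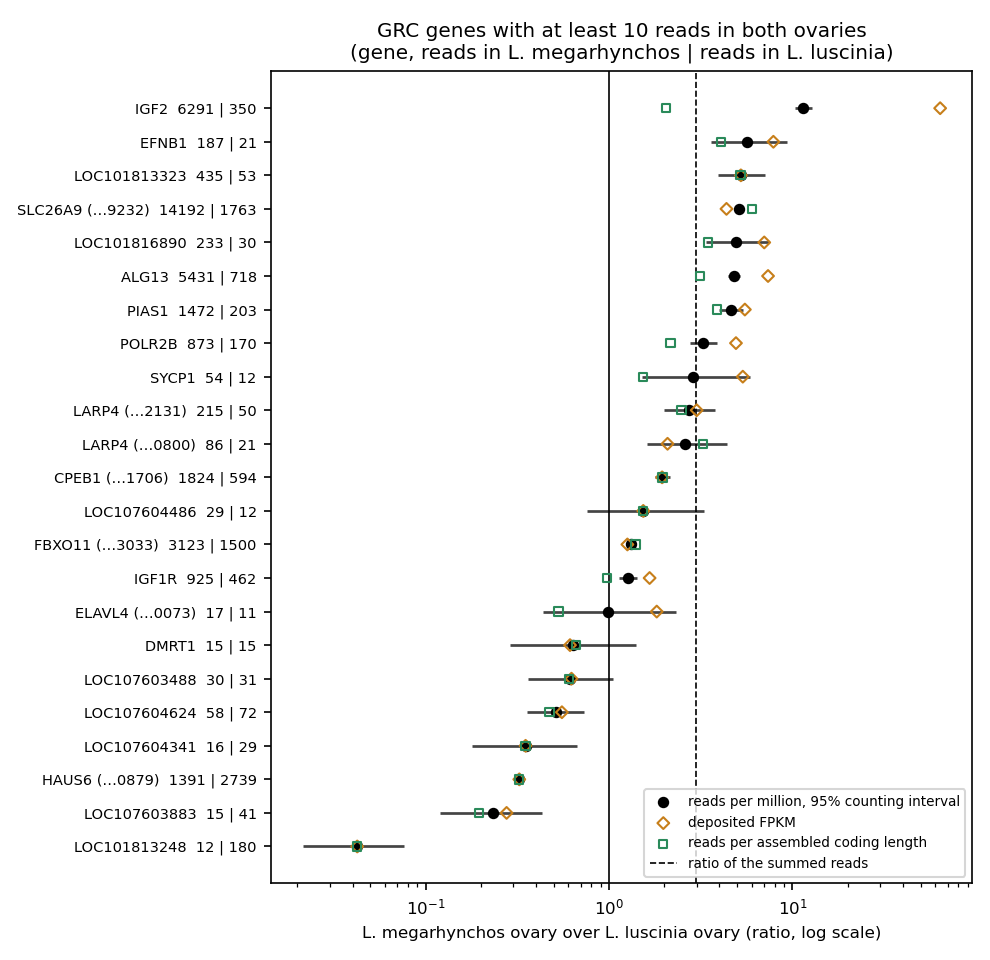
Ratio of *L. megarhynchos* to *L. luscinia* (log scale) for 23 of the 24 GRC genes with at least 10 reads in both ovaries, with the reads of both libraries beside each name and the last 4 digits of the protein identifier where a symbol has several. Black points with bars are ratios of RPM with 95% counting intervals, diamonds are deposited FPKM and squares are reads per assembled coding length. The 3 markers lie far apart for IGF2 (11.4 by RPM, 63.8 by deposited FPKM and 2.05 per assembled length) and together for LOC101813248 (all 0.0424).

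Among genes of growth factor and contact signalling, the RPM ratios of IGF2 and EFNB1 were above that of IGF1R. IGF2, a growth factor of the insulin family, had 6291 reads (109 RPM) in the *L. megarhynchos* ovary, against 350 reads (9.55 RPM) in the *L. luscinia* ovary, giving a ratio of 11.4 (10.3 to 12.8). This was the highest RPM ratio of the 24 genes, but its size depended on the unit. As deposited, FPKM was 135 in *L. megarhynchos*, against 2.11 in *L. luscinia*, giving a ratio of 63.8, because the deposited values are multiplied by the share of the gene found. Per assembled coding length, the ratio was 2.05. IGF2 had rank 1 in *L. megarhynchos* and rank 11 in *L. luscinia* by deposited FPKM, and rank 1 and rank 2 by assembled length. The piece of IGF2 on the *L. luscinia* assembly was shorter than a read, so its rate per length is uncertain.

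IGF1R, a receptor tyrosine kinase for insulin-like growth factors, had 925 reads (16.05 RPM) in *L. megarhynchos* and 462 reads (12.6 RPM) in *L. luscinia*. Its RPM ratio of 1.27 (1.14 to 1.43) became 0.974 per assembled coding length. EFNB1, a membrane-bound ligand of Eph receptors, had 187 reads in *L. megarhynchos* and 21 reads in *L. luscinia*, giving a ratio of 5.66 (3.60 to 9.36). NECTIN3, a cell adhesion protein, had 74 reads in *L. megarhynchos* and was not annotated on the *L. luscinia* GRC. PTK2, the focal adhesion kinase, showed the opposite, with 19 reads for its main identifier in *L. luscinia* and no annotation on the *L. megarhynchos* GRC. PCDH7 and SEMA7A had an FPKM of 0.000254 and 0.00100 in *L. megarhynchos* and 0 in *L. luscinia*. Of the 15 genes on this list, 7 were in the table, of which 3 were above 0 in *L. megarhynchos* only, 3 in both ovaries and 1 in *L. luscinia* only. Together they had 130 RPM in *L. megarhynchos* and 23.2 RPM in *L. luscinia*. Merged by symbol, 50.6% of the 257 genes above 0 in an ovary were so in *L. megarhynchos* only, 23.0% in both and 26.5% in *L. luscinia* only. For the 131 genes with recovered reads, identifiers kept apart, the shares were 38.2%, 36.6% and 25.2%. These shares stand beside the counts of each list as background only, because the lists were chosen with earlier results of these data known.

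The 4 membrane transport genes held 28.5% of GRC reads in *L. megarhynchos* and 16.9% in *L. luscinia*, nearly all of them from SLC26A9. This anion transporter had the most reads of any gene there, 14192 (246 RPM), and 1763 (48.1 RPM) in *L. luscinia*, giving a ratio of 5.12 (4.87 to 5.38). A second SLC26A9 identifier (XP_016159737), without recovered reads, had an FPKM of 0.556 in *L. megarhynchos* and 0.00490 in *L. luscinia*. Outside the list, ALG13, a subunit of an enzyme that builds the sugar chain for N-glycosylation, had 5431 reads (94.2 RPM) in *L. megarhynchos* and 718 (19.6 RPM) in *L. luscinia*, giving a ratio of 4.81 (4.45 to 5.21). On the list, MFSD2B, an exporter of sphingosine-1-phosphate, had 7 reads in *L. megarhynchos* and 28 in *L. luscinia*, giving a ratio of 0.159 (0.0586 to 0.372). SLC39A10, a zinc importer, had 63 reads in *L. megarhynchos* and was not annotated on the *L. luscinia* GRC. SLCO1C1, an organic anion transporter, had 1 read in *L. luscinia* and none in *L. megarhynchos*, where it was not annotated.

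Of the genes that bind RNA and control translation, CPEB1 was the most abundant in both birds. CPEB1 regulates the polyadenylation and translation of stored mRNAs, a role known best from oocytes of frogs and mice. It had 1824 reads (31.6 RPM) in *L. megarhynchos* and 594 (16.2 RPM) in *L. luscinia*. The ratio of 1.95 (1.78 to 2.15) hardly moved with the unit, since it was 1.95 by deposited FPKM and 1.96 per assembled length, but as a share of GRC reads CPEB1 was lower in *L. megarhynchos* (3.64%) than in *L. luscinia* (5.59%). Another identifier of CPEB1 (XP_005051707) had an FPKM of 0.196 in *L. megarhynchos* and 0.0726 in *L. luscinia*.

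LARP4, a poly(A)-binding protein that stabilises mRNA, was listed under a pair of identifiers that together had 301 reads in *L. megarhynchos* and 71 in *L. luscinia*. Their ratios were 2.73 (2.002 to 3.80) for XP_005062131 and 2.60 (1.60 to 4.42) for XP_016160800, and both fell below 1 relative to the sum on GRC genes (log2 ratios of -0.13 and -0.20). ELAVL4, an RNA-binding protein known from neurons, had 17 reads in *L. megarhynchos* and 11 in *L. luscinia* for the identifier annotated in both (XP_005050073), and its ratio of 0.983 (0.434 to 2.32) lay on different sides of 1 by FPKM (1.82) and per assembled length (0.531). Another pair of ELAVL4 identifiers had 11 and 9 reads in *L. megarhynchos* and were not annotated on the *L. luscinia* GRC. Summed over all ELAVL4 identifiers there were 37 reads in *L. megarhynchos* and 11 in *L. luscinia*, giving a ratio of 2.14 (1.07 to 4.65). ELAVL2 had an FPKM of 0.00290 in *L. megarhynchos* and 0 in *L. luscinia*. AGO2, the slicing Argonaute of small RNA pathways, was annotated on the *L. luscinia* GRC only and had 154 reads there for its main identifier. Of the 21 genes on this list, 5 were in the table, with 37.5 RPM in *L. megarhynchos* and 22.7 RPM in *L. luscinia*, or 4.32% and 7.82% of the GRC reads.

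Of the meiosis genes, 3 were above 0, 1 in both ovaries and 2 in a single ovary, against 198 of all 257 genes (symbols merged) in a single ovary. SYCP1, which forms the transverse filaments of the synaptonemal complex, had 54 reads (0.937 RPM) in *L. megarhynchos* and 12 (0.327 RPM) in *L. luscinia*. Its ratio of 2.86 (1.51 to 5.88) was 5.36 by deposited FPKM and 1.53 per assembled length, and relative to the sum on GRC genes it turned to a log2 ratio of -0.067. SYCE3, a protein of the central element of the same complex, had 182 reads in *L. megarhynchos*, where its FPKM of 12.1 had rank 8. RNF212B, a RING protein needed for crossing over in mice, had 39 reads and an FPKM of 1.29 in *L. luscinia*. Neither SYCE3 nor RNF212B was annotated on the GRC of the other species. MSH4 and TEX12 were in the table but at 0 in both ovaries, and the other 20 of 25 meiosis genes were not in the table.

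For ubiquitin and SUMO ligases, FBXO11, a substrate receptor of a ubiquitin ligase, had 3123 reads (54.2 RPM) in *L. megarhynchos* and 1500 (40.9 RPM) in *L. luscinia*. Its ratio of 1.32 (1.24 to 1.41) was below that of the sum of GRC genes, and it took 6.24% of GRC reads in *L. megarhynchos* against 14.1% in *L. luscinia*. PIAS1, a SUMO ligase, had 1472 reads (25.5 RPM) in *L. megarhynchos* and 203 (5.54 RPM) in *L. luscinia*, giving a ratio of 4.61 (3.98 to 5.37). PSMD4, the ubiquitin receptor of the proteasome, had 120 reads in *L. megarhynchos*, and MKLN1, a subunit of a ubiquitin ligase complex, had 29 reads in *L. luscinia*, each without annotation on the other GRC. FEM1B and PSMA5 had 2 and 4 reads in *L. megarhynchos* and were not annotated on the *L. luscinia* GRC. All 7 genes of the list were in the table, 3 above 0 in *L. megarhynchos* only, 2 in both and 2 in *L. luscinia* only, which is near the shares over all genes.

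On the list for transcription and chromatin, POLR2B, a large subunit of RNA polymerase II, had 873 reads (15.1 RPM) in *L. megarhynchos* and 170 (4.64 RPM) in *L. luscinia*, giving a ratio of 3.27 (2.77 to 3.87). GLYR1, a nucleosome-binding protein, had 76 reads in *L. megarhynchos* and 1 read in *L. luscinia*, giving a ratio of 48.3 with an interval of 8.42 to 1933. DMRT1, a transcription factor of gonad development, had 15 reads in *L. megarhynchos* and 15 in *L. luscinia*. The interval of its ratio, 0.636 (0.290 to 1.40), included 1.

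FOXN2, a forkhead transcription factor, showed how the identifiers affect the overlap. Its identifier XP_005043027 had 71 reads in *L. megarhynchos* and none in *L. luscinia*, while XP_016152670 had 34 reads in *L. luscinia* and none in *L. megarhynchos*, and each was annotated on 1 GRC only. Summed over both identifiers the ratio was 1.33 (0.870 to 2.06). The remaining transcription and chromatin genes each lay on 1 side. POLD2 (an accessory subunit of DNA polymerase delta), CHD5 (a chromatin remodeller), MEF2D (a transcription factor) and BTF3 had 589, 309, 45 and 16 reads in *L. megarhynchos* and were not annotated on the *L. luscinia* GRC. SCX (scleraxis, a transcription factor known from tendon) and CHRAC1 (a histone-fold subunit of a remodelling complex) had 857 and 58 reads in *L. luscinia* and were not annotated on the *L. megarhynchos* GRC. STAT4 and ELL2 were at 0 in both ovaries. Of the 14 genes on the list, 5 were above 0 in *L. megarhynchos* only, 5 in both, 2 in *L. luscinia* only and 2 in neither, where 66.6% of all 769 symbols in the table were in neither.

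A group of genes ran against the general difference. HAUS6, a subunit of the augmin complex that makes spindle microtubules, had 1391 reads (24.1 RPM) in *L. megarhynchos* and 2739 (74.7 RPM) in *L. luscinia*, giving a ratio of 0.323 (0.302 to 0.345). It made up 2.78% of GRC reads in *L. megarhynchos* (2.63% to 2.92%) and 25.8% in *L. luscinia* (24.9% to 26.6%), where it had the most reads of any gene. A second HAUS6 identifier (XP_016160880), without recovered reads, had a higher FPKM in *L. megarhynchos* (1.70) than in *L. luscinia* (0.00367). Whether these values carry a different share of the gene found in each species was not tested. LOC101813248, which the study names as similar to *hydin*, a gene of motile cilia, had 12 reads (0.208 RPM) in *L. megarhynchos* and 180 (4.91 RPM) in *L. luscinia*, giving a ratio of 0.0424 (0.0215 to 0.0759). The uncharacterised genes next in order were also lower in *L. megarhynchos*: LOC107603883 with 15 reads against 41, LOC107604341 with 16 against 29 and LOC107604624 with 58 against 72, and ratios of 0.233, 0.351 and 0.512. A second *hydin*-like gene, LOC101814235, had no read in *L. megarhynchos* and 3 reads in *L. luscinia*.

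The same 24 genes were set beside the testis libraries. In *L. luscinia*, 8 of the 24 genes (33.3%) had more RPM in the testis than in the ovary. Among them were 4 of the 5 genes whose ovary interval lay wholly below 1, the exception being HAUS6. They also included 3 of the 14 genes whose interval lay wholly above 1 (LARP4 under both identifiers and LOC101813323). In *L. megarhynchos*, 4 of the 24 genes (16.7%) had more RPM in the testis, with 2 of the 5 and 1 of the 14 among them. These shares rest on few genes, and their difference was not tested. LOC101813248 had 347 reads in the *L. megarhynchos* testis, against 4281 in the *L. luscinia* testis. LOC101813524 and LOC101822191, with 2 reads each in the *L. megarhynchos* ovary, against 16 and 12 in the *L. luscinia* ovary, had 1031 and 121 reads in the *L. megarhynchos* testis, against 8034 and 3364 in the *L. luscinia* testis. These 2 genes were chosen after their values were seen.

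**Figure D3:**
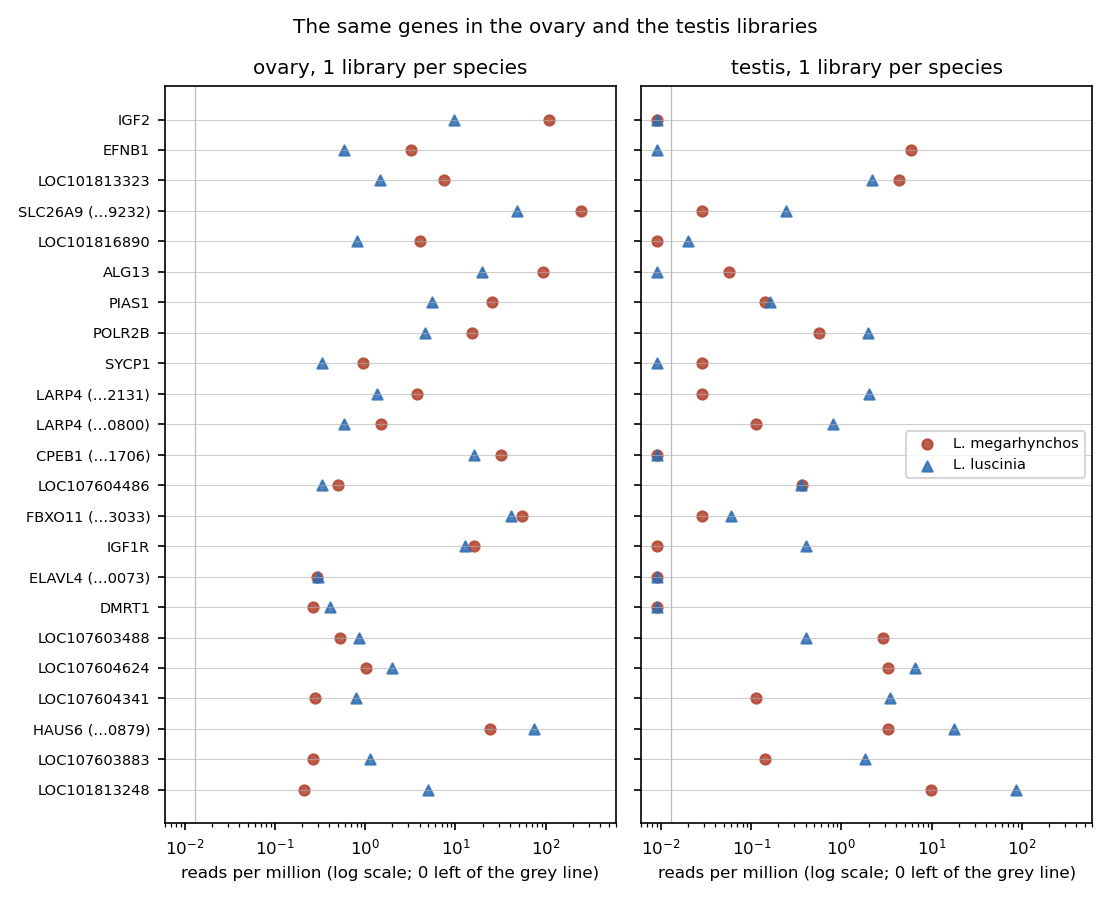
RPM (log scale) of 23 of the 24 genes of the ratio comparison, in the ovary libraries (left) and the testis libraries (right), ordered by the ovary ratio. Circles are *L. megarhynchos*, triangles *L. luscinia*, each 1 library, and values of 0 lie left of the grey line. CPEB1 and IGF2 are at 0 in both testes, while LOC101813248, at the bottom, is higher in the testis than in the ovary of both species.

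The study reports that most GRC genes are duplicated, the repeat-like and zinc finger genes among them, while CPEB1 is single-copy. Reads that matched several places equally well were not kept, which can lower the count of genes close in sequence to an A-chromosomal copy. The study reports that near-identical copies within the GRC were merged in its assemblies, so their reads can add up there. How far either affects the ratios was not tested. LOC107603367, similar to the retroviral *ervk*, had 240 reads in *L. megarhynchos* and 9 in *L. luscinia*, giving a ratio of 17.0 (8.78 to 37.5). Other *ervk*-like entries did not share this size, with 3 reads in *L. megarhynchos* and 6 in *L. luscinia* for LOC107604299, 26 and 6 for LOC107604464 XP_016161146, and 9 and 6 for LOC107604464 XP_016161147. LOC101813323, similar to the zinc finger gene *znf239*, had 435 reads (7.55 RPM) in *L. megarhynchos* and 53 (1.45 RPM) in *L. luscinia*, giving a ratio of 5.22 (3.92 to 7.08). The uncharacterised LOC101816890 had 233 reads in *L. megarhynchos* and 30 in *L. luscinia*, giving a ratio of 4.94 (3.37 to 7.48). LOC107604486, with 29 reads and 12, and LOC107603488, with 30 and 31, had ratios of 1.54 (0.760 to 3.31) and 0.615 (0.360 to 1.05).

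The make-up of the GRC reads thus differed between the birds in its leading genes. By reads, the first 5 genes gave 73.0% in *L. megarhynchos* and 71.3% in *L. luscinia*. Of the 8 genes with the highest deposited FPKM in each ovary, 4 were the same: SLC26A9, ALG13, CPEB1 and FBXO11. The other 4 in *L. megarhynchos* were IGF2, LOC101808355, SMU1 and SYCE3, and the other 4 in *L. luscinia* were HAUS6, SCX, LOC101813248 and CHRAC1. LOC101808355, SMU1, SYCE3, SCX and CHRAC1 were each annotated on 1 GRC only, so they could not rank in the other ovary. Per assembled length, ranks in *L. megarhynchos* and *L. luscinia* were 1 and 2 for IGF2, 11 and 3 for HAUS6, and 65 and 9 for LOC101813248. Across the 63 genes above 0 in both ovaries, log2 FPKM gave Pearson's r = 0.689 and Spearman's rho = 0.625. For the 24 genes of the ratio comparison, r was 0.820 by RPM and 0.827 per assembled length. These values describe genes of single libraries, which share the flycatcher gene lengths and, by FPKM, the multiplication by the share found.

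**Figure D4:**
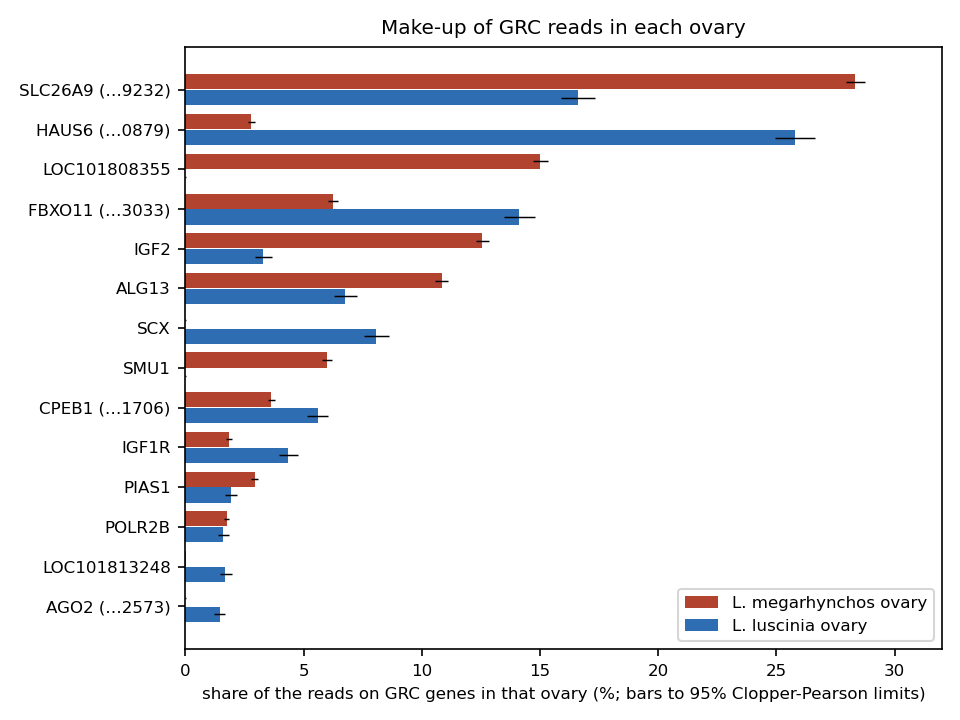
Share of the reads on GRC genes (%, x axis from 0) taken by the 14 genes with the largest share in either ovary, with *L. megarhynchos* above *L. luscinia* for each gene and error bars to the 95% Clopper-Pearson limits. SLC26A9 took 28.3% in *L. megarhynchos* and 16.6% in *L. luscinia*, and HAUS6 took 2.78% and 25.8%.

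Genes with reads in 1 ovary only were mostly genes annotated on 1 GRC only. Such a gene could have reads in 1 ovary at most, so this is in part set by the annotation. Most of all the genes that the study identified were likewise found on 1 assembly only. Of the 50 genes with reads only in *L. megarhynchos*, 39 were not annotated on the *L. luscinia* GRC, and these 39 held 24.6% of all GRC reads in *L. megarhynchos*. Of the 33 genes with reads only in *L. luscinia*, 22 were not annotated on the *L. megarhynchos* GRC, and they held 12.2% of the reads in *L. luscinia*. The uncharacterised LOC101808355 led the first set with 7519 reads (15.0% of GRC reads), followed by SMU1, a splicing factor, with 2999 reads, and by the genes POLD2, CHD5, SYCE3 and PSMD4 described above. SCX led the second set, followed by AGO2, CHRAC1, RNF212B, FOXN2, MKLN1 and, with 23 reads, the phosphatase PTP4A3. SCX ranked 4 by deposited FPKM in *L. luscinia* (12.7) and 1 per assembled length, where its assembled piece was about as short as a read. PGPEP1L had 1 read in *L. megarhynchos*.

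A smaller number of genes had reads in 1 ovary although the gene was annotated on both GRCs. For these, reads could have been counted in the other ovary only if they matched a unique place. They were 11 genes in *L. megarhynchos*, 4 of them with at least 10 reads, and 11 genes in *L. luscinia*, 2 of them with at least 10 reads. CHD4, a chromatin remodeller, had 90 reads in *L. megarhynchos* and none in *L. luscinia*, which makes it at least 19.1-fold higher in *L. megarhynchos* when 3 reads are taken as the limit of a count of 0 in a library. AEBP1, an extracellular matrix protein, had 76 reads in *L. megarhynchos* and none in *L. luscinia*, at least 16.1-fold higher. LOC107604314 had 43 reads and LOC101817906 had 20 reads in *L. megarhynchos*, at least 9.11-fold and 4.24-fold higher. LOC101818220 had no read in the *L. megarhynchos* ovary, against 51 in the *L. luscinia* ovary, at least 26.7-fold lower in *L. megarhynchos*. LOC101810994 had no read in *L. megarhynchos* and 15 in *L. luscinia*, at least 7.86-fold lower in *L. megarhynchos*. These limits are of RPM, and a gene with a short assembled piece in a species could receive fewer reads there. CHD4, AEBP1 and LOC101817906 also had no reads in the *L. luscinia* testis, where LOC107604314 had 4. In the *L. megarhynchos* testis LOC101810994 had no reads and LOC101818220 had 97. Whether the pieces without reads can be counted at all in that species was not tested, so these folds may not measure expression.

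The identifiers give each gene's place in the list of flycatcher coding sequences, which follows the flycatcher chromosomes. The entries within 50 places of AGO2 on its flycatcher chromosome were looked at together. Of the 26 entries of this block in the table, 1 was above 0 in the *L. megarhynchos* ovary only, 2 in both ovaries and 15 in the *L. luscinia* ovary only. The block held 3.25% of the genes in the table, 0.741% of the genes above 0 in *L. megarhynchos* only and 19.5% of those above 0 in *L. luscinia* only. Several of these entries are identifiers of 1 gene, so they are not independent. The *L. luscinia* entries included TRAPPC9, a subunit of a vesicle tethering complex, with 17 reads, CHRAC1 with 58, AGO2 with 154, PTK2 with 19, GPR20, an orphan receptor, with 8, PTP4A3 with 23 and 19 for its pair of identifiers, TSNARE1 with 5 and ADGRB1 with 4. In *L. megarhynchos* the reads were 1 for LOC101821516, 1 for LOC107603352 and 3 for LOC101816049. All 10 entries with recovered reads in *L. luscinia* only were not annotated on the *L. megarhynchos* GRC. They could therefore receive no reads there, and their 0 does not tell whether the genes are absent from that chromosome. The block was chosen after these values were seen. The study reports a large region on the *L. luscinia* GRC, copied from an A chromosome, that is absent on the *L. megarhynchos* GRC. It checked this by PCR across a boundary of the region, and holds that the difference is not an assembly error. Whether the block lies in that region was not tested.

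**Figure D5:**
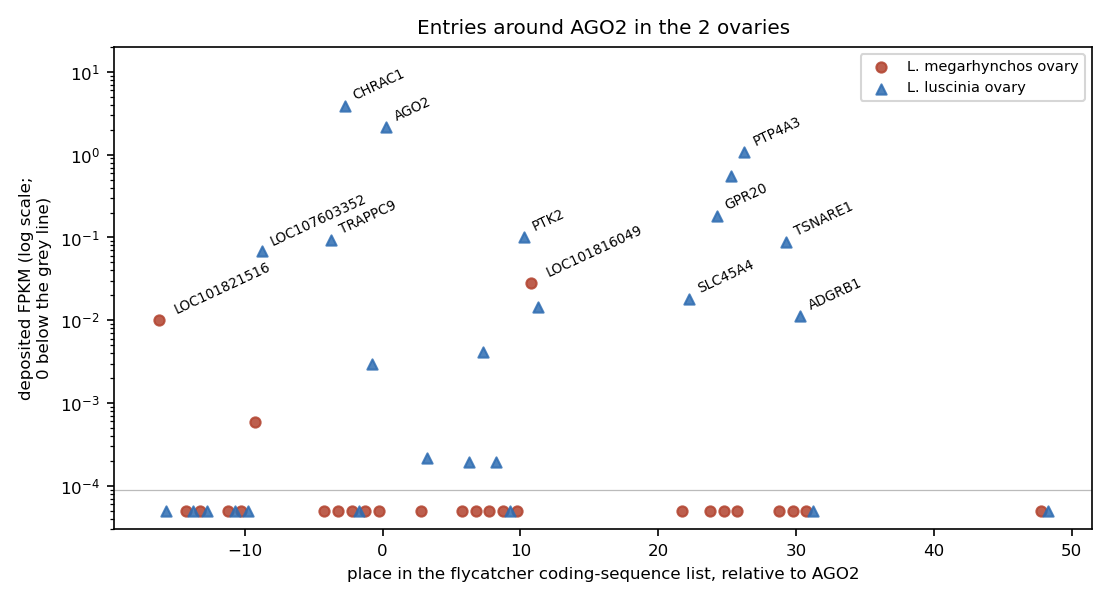
Deposited FPKM (log scale) of the 26 table entries within 50 places of AGO2 in the flycatcher coding-sequence list, plotted by place relative to AGO2. Circles are the *L. megarhynchos* ovary and triangles the *L. luscinia* ovary, each 1 library, and values of 0 lie below the grey line. The *L. megarhynchos* points are at 0 except at 3 entries, and the *L. luscinia* points lie above 0 at 17 entries, 10 of which have recovered reads in *L. luscinia* only and were not annotated on the *L. megarhynchos* GRC.

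Among the genes without recovered reads, which are not among those the study identified, deposited FPKM was low in both ovaries. If these values too are multiplied by the share found, a small share lowers them, so they need not mean few reads. Whether they are so multiplied was not tested. Their FPKM summed to 4.75 in *L. megarhynchos* and 1.09 in *L. luscinia*, against 506 and 124 over the whole table. Of these genes 85 were above 0 in *L. megarhynchos* only, 15 in both and 44 in *L. luscinia* only. Besides the second identifiers of HAUS6, SLC26A9 and CPEB1, the highest in *L. megarhynchos* were SAXO1, a microtubule protein, with an FPKM of 0.512 against 0 in *L. luscinia*, AGGF1, an angiogenic factor, with 0.348 against 0.00178, and MSH6, a mismatch repair protein, with 0.269 against 0.000857. In *L. luscinia* the highest were LOC101817233 (0.323) and SOWAHB (0.317), both at 0 in *L. megarhynchos*, followed by CPEB1, LOC101817509 with 0.0869 in *L. megarhynchos* and 0.0594 in *L. luscinia*, and CMTR2, an mRNA cap methyltransferase, with 0.00720 in *L. megarhynchos* and 0.0498 in *L. luscinia*. LOC101821469 (0.0821 in *L. megarhynchos* and 0.0155 in *L. luscinia*), LOC101821108 (0.0345 and 0.0109) and RCC2, a regulator of chromosome condensation (0.0117 and 0.0103), were also above 0 in both. Whether these low values come from reads of A-chromosomal paralogs was not tested.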

How the data were processed

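RNA of 1 ovary and 1 testis per species was sequenced (4 libraries). Trimming was done by the authors with Trimmomatic 0.39. Alignment used STAR 2.7.9a and a reference of each species' somatic genome plus its GRC assembly, and reads with a unique position on an exon found by homology to flycatcher genes were kept. How reads were counted, and whether by strand, is not given in the sources used here. Values were deposited as FPKM. They carry decimal commas. This format, another than assumed when the comparisons were chosen, was read as such.

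For the 192 genes with a published coding length, the deposited FPKM equalled reads per full coding length and per 1000000 reads of the library, multiplied by the share of the gene found on the GRC. With this rule 100% of the ovary values were whole reads within 0.01 reads, against 9.18% in *L. megarhynchos* and 7.41% in *L. luscinia* without the multiplier. The study describes its FPKM as based on the gene's length on the GRC. Division by the share found gave whole reads for only 11.2% of values in *L. megarhynchos* and 8.64% in *L. luscinia*. The study also advises against comparing FPKM across its datasets, because the proportion of cells with a GRC is unknown. The share is the study's adjusted one, divided within a limit by the share of the gene found in the *L. megarhynchos* genome. Division by coding length times that share gave the values per assembled length, so these lengths can exceed the bases assembled. Recovery was tested on simulated data. Ratios of reads have exact intervals conditional on their sum (Clopper-Pearson), and sums have exact Poisson intervals. Reads without molecular identifiers are not independent molecules, so intervals and the limit of 3 reads cover counting error only. Reads misaligned from A-chromosomal paralogs could raise a value.

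The genes named are those with at least 10 reads in both ovaries, the 8 with the highest FPKM in each ovary, the 8 with the most reads among those in 1 ovary only, the 5 highest without recovered reads in each ovary and in both, and the lists given, except 1 gene that is counted but not reported here. Members and lists were chosen with earlier results of these data known. Alternatives were other thresholds, units, scalings and gene sets. The software was Python 3.11.15 with scipy 1.17.1, numpy 2.4.6 and pandas 2.3.3.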

Additional observations from a re-analysis of the deposited data

Results flagged for a closer look

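The species differed in opposite directions in the ovary and the testis. RPM on GRC genes had a ratio, *L. megarhynchos* over *L. luscinia*, of 2.997 in the ovary and 0.490 in the testis. For POLR2B the ratio was 3.27 in the ovary (2.77 to 3.87) and 0.285 in the testis (0.167 to 0.465), where it rested on 20 reads in *L. megarhynchos* and 99 in *L. luscinia*. Each ratio compares 1 bird with 1 bird, and the difference between the tissues was not tested. All 4 libraries came from different birds, so bird and tissue cannot be told apart.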

How the results depend on the processing

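No paired analysis was possible because each species had 1 ovary library. For the same reason no library could be left out. The counts of genes above 0 depended on the minimum. In *L. megarhynchos* the 198 genes became 58 at an FPKM of at least 0.1, 21 at 1, 77 with at least 3 reads and 57 with at least 10 reads. In *L. luscinia* the 140 genes became 42, 17, 59 and 41, and the 63 genes in both ovaries became 23, 10, 34 and 24. Minimums of reads apply only to genes with recovered reads. Merging identifiers by symbol left 257 genes above 0 in either ovary and, in a setting added after seeing the data, 59 in both. The ratio of summed reads of 2.997 became 2.58 over genes with reads in both ovaries, 2.86 without the 5 genes with the most reads in either ovary, 2.61 without genes named LOC, 4.07 for summed FPKM and, added after seeing the data, 2.57 over genes annotated on both GRCs. The 11 genes at least 2-fold higher in *L. megarhynchos* became 1 relative to the sum on GRC genes, 7 relative to the median ratio and 7 at 4-fold. The 4 genes at least 2-fold higher in *L. luscinia* became 11 and 7 with these scalings, 8 with at least 3 reads in both, 7 at 1.5-fold and 2 at 4-fold. Relative to the sum on GRC genes the log2 ratio of LARP4 turned to -0.13 (XP_005062131) and -0.20 (XP_016160800) and that of SYCP1 to -0.067. Among genes with at least 10 reads in both ovaries, no other 2-fold ratio changed sign under the alternatives tried. Smaller ratios did: CPEB1, FBXO11 and IGF1R, whose intervals lay wholly above 1, went to -0.62, -1.18 and -1.24 relative to the sum on GRC genes. With fewer reads, LOC107604464 XP_016161146 went to -0.12 relative to the sum on GRC genes, and LOC107603352, with 1 read in *L. megarhynchos* and 3 in *L. luscinia*, had -2.24 by RPM and 2.36 per assembled length. Of the 48 genes with reads in both ovaries, the ratio left its counting interval for 6 by deposited FPKM, 7 per assembled length, 16 relative to the median ratio, 12 and 25 with 0.1 or 1 added to FPKM, and 25 relative to the sum on GRC genes besides LARP4 and SYCP1. The correlation of 0.689 lay between 0.625 and 0.751 under its alternatives.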
